A study of Mus musculus with 24 samples.

Results

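The genes described here encode cytokines of the IL-20 and IL-17 subfamilies and their receptor chains. They are the ligands Il19, Il20, Il24, Il17a and Il17c and the receptors Il20ra, Il20rb, Il22ra1, Il17ra and Il17rc. They were chosen by symbol, and all 10 were found among the 18368 genes measured. Full-thickness skin of CD1 mice, an outbred stock, aged 7 weeks and in the resting phase of the hair cycle, was sampled at the abdomen, the back or the cheek. Each of 12 mice, 4 per site, gave a biopsy of a 2 mm excisional punch wound at day 3 and a biopsy of adjacent unwounded skin, so that 24 libraries fell into 6 groups of 4. All mice were anaesthetised, given analgesic and shaved, and carried 2 wounds at the abdomen or back or 1 at the cheek. The unwounded biopsy therefore came from a wounded animal, and no gene was altered in any group.

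IL-19, IL-20 and IL-24 are cytokines of the IL-10 family. All of them bind the receptor formed by IL-20RA and IL-20RB, and IL-20 and IL-24 also bind the receptor formed by IL-22RA1 and IL-20RB. These receptors are carried mainly by epithelial cells, signal through JAK kinases and STAT3, and in keratinocytes are known for driving proliferation and the expression of stress keratins and antimicrobial peptides. IL-17A, released by T cells and innate lymphocytes, signals through IL-17RA paired with IL-17RC, whereas IL-17C comes from epithelial cells and uses IL-17RA paired with IL-17RE. Both lead through the adaptor Act1 to NF-kB, to neutrophil-attracting chemokines and to antimicrobial proteins.

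Levels are given as FPKM, fragments of a gene relative to its transcript length and to all mapped fragments, which allow levels of different genes to be compared per length. Differences are log2 fold changes on the log2(FPKM + 0.5) scale, tested with limma, and adjusted p values are from this test with Benjamini-Hochberg adjustment over all genes tested. For wounding, a gene is said to have risen or fallen at an adjusted p under 0.001, the threshold of the study. Between sites the threshold was 0.05. The tissue is a mixture of cell types, so fewer cells that express a gene and less RNA per cell cannot be told apart in any of the results. FPKM values hold no counts and the sequencing depth is unknown, so no counting error is attached to a value. From the lowest values of 34 genes, relative depth was between 0.909 and 1.05 across libraries, a rough estimate. Each library rested on 1 to 18 of these genes, and the value of 0.909, unwounded back skin of mouse 1, on 1.

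The receptors were expressed far above the ligands. In unwounded skin the median over 12 libraries was 47.7 FPKM for Il20rb and 39.2 for Il17rc, and then 9.58 for Il22ra1, 6.38 for Il20ra and 5.70 for Il17ra. Of the ligands, Il20 had a median of 1.16 FPKM and Il19 of 0.075, while Il24, Il17a and Il17c had a median of 0. In this order the ranges of Il20rb and Il17rc overlapped, as did those of Il22ra1 and Il20ra, of Il20ra and Il17ra, and of Il19 and Il24. The other neighbours with levels above 0 did not overlap. In wounds the order changed at several places. Il17rc had a median of 45.8 FPKM and Il20rb of 31.2, Il17ra of 9.99, Il22ra1 of 8.87 and Il20ra of 4.17, followed by Il24 at 1.35, Il20 at 0.71 and Il19 at 0.275. There the ranges of Il17rc and Il20rb, of Il17ra and Il22ra1, of Il20ra and Il24, of Il24 and Il20, and of Il20 and Il19 overlapped, and Il17a and Il17c had a median of 0.

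**Figure D1:**
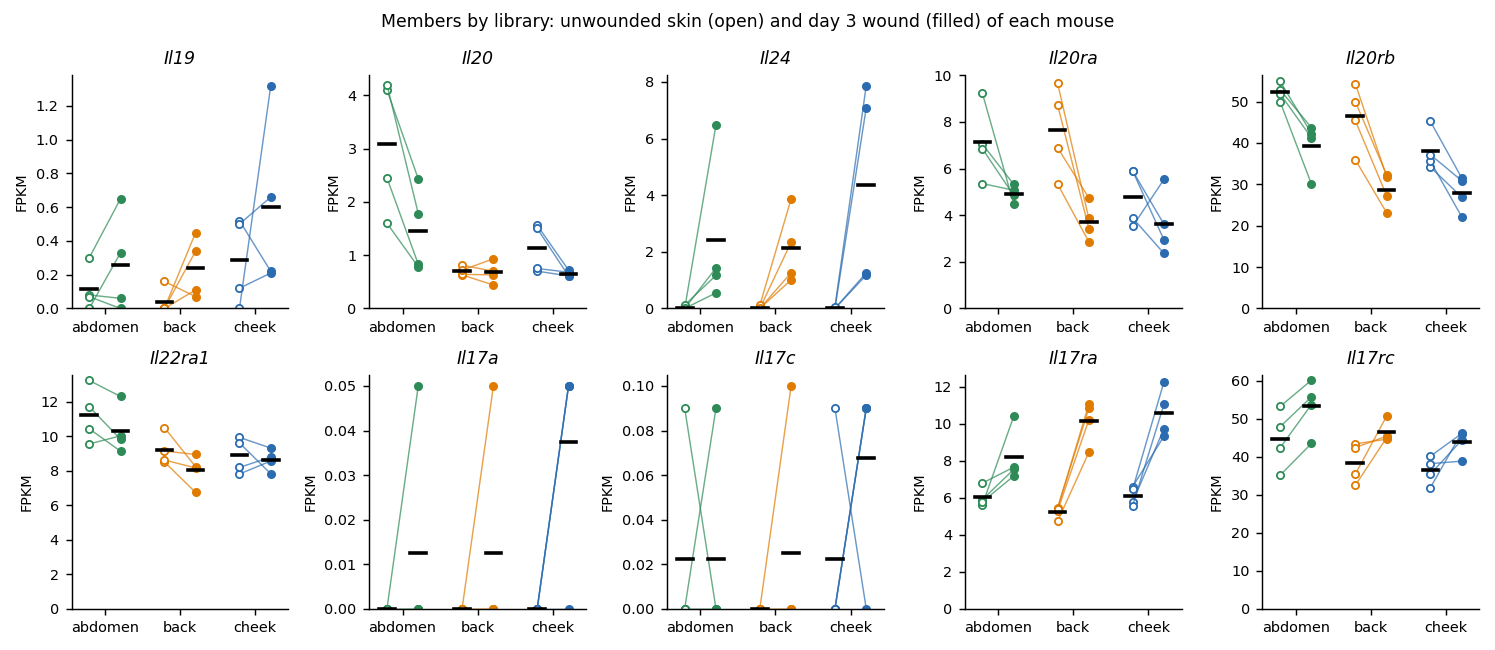
FPKM of the 10 genes in each of the 24 libraries, with a separate scale for each gene. Open circles are unwounded skin, filled circles are wounds, lines join the libraries of a mouse, black bars are means of 4 libraries, and equal values lie on top of each other. Il24 and Il17ra were higher in the wound of all 12 mice and Il20rb was lower in all 12, while Il17a did not exceed 0.05 FPKM.

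Taken over the 3 sites, wounding raised Il24 and Il17ra and lowered Il20rb and Il20. These are 4 of the 8 genes that could be tested, where 33.4% of all 14423 tested genes passed the same threshold. The share of all genes was 19.1% for rises and 14.4% for falls, so the count of 2 in each direction among 8 is not far from the background. The median log2 fold change of the 8 genes was 0.08, against 0.02 over all tested genes. Il17a and Il17c did not reach 0.5 FPKM in 4 libraries and were not tested by limma. Il24, at 0 or nearly so in unwounded skin, passed this filter only through the wounds, where it had to be higher.

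Il20 and Il19 lie beside Il24 on chromosome 1 (RefSeq, GRCm38.p6). Il24 spans 130882074 to 130887411, Il20 spans 130906985 to 130911296 and Il19 spans 130932656 to 130945457. The gaps are 19.6 kb between Il24 and Il20 and 21.4 kb between Il20 and Il19, and the 3 genes together span 63.4 kb. Their receptors are spread over other chromosomes, with Il20ra on chromosome 10 from 19711673 to 19760053, Il20rb on chromosome 9 from 100457719 to 100486473 and Il22ra1 on chromosome 4 from 135728159 to 135755383. Il17a is also on chromosome 1, from 20730905 to 20734496, and Il17c is on chromosome 8 from 122422020 to 122423639. Il17rc and Il17ra are both on chromosome 6, from 113471455 to 113483163 and from 120463181 to 120483731. Il20ra overlaps the predicted gene Gm33332 in this annotation, and whether reads were assigned by strand is not given in the sources used here, so reads of the 2 genes may not be separable.

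The 250 bases before a start site are shown for Il19, a ligand, and for Il20ra, a chain of its receptor, as sequence near the starts of a ligand and a receptor of the same pathway. The windows were taken from RefSeq (GRCm38.p6), which gave one for 8 of the 10 genes, and are written 5′ to 3′ on the strand of the gene. They lie at chr1:130940116-130940365 (minus strand) for Il19 and chr10:19712337-19712586 (plus strand) for Il20ra. Both lie inside the gene spans given above, since those spans reach further upstream, so each precedes an internal transcript start and not the outermost one. The windows of Il20 and Il20rb overlap first exons in the GENCODE annotation and are not shown. Capitals mark matches to the motifs searched on both strands, which were the AP-1 motif TGANTCA, the STAT motif TTCNNNGAA, the TATA box TATAAA and the NF-kB motif.
Il19: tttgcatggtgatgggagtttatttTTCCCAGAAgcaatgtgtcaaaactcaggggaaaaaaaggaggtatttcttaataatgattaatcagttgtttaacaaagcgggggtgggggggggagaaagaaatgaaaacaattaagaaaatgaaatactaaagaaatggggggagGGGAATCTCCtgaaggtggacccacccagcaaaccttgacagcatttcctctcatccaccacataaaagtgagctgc
Il20ra: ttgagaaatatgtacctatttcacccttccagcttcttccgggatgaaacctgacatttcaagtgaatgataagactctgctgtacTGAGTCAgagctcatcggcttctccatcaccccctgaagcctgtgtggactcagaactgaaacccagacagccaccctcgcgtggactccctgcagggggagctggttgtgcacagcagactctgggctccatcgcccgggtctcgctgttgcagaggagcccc
The Il19 window held a STAT motif, TTCCCAGAA, at position -225 counted from the start site and an NF-kB motif, GGGAATCTCC, at position -77. The Il20ra window held 1 AP-1 motif, TGAGTCA, at position -164. No match was found in the Il20 and Il20rb windows. Among all 32851 windows of this length, 6.75% held the AP-1 motif, 7.02% the STAT motif, 12.4% the TATA box and 3.90% the NF-kB motif. The matches did not overlap, and a match is only a description of these letters.

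Il24 encodes a cytokine that signals to epithelial cells through both IL-20 receptors. It was listed at 0 in 9 of 12 unwounded libraries and did not exceed 0.12 FPKM in the other 3. In abdomen wounds it was measured at 6.49, 1.43, 1.17 and 0.55 FPKM in mice 1 to 4. Back wounds had 2.34, 1.26, 3.87 and 1.01 FPKM, and cheek wounds had 1.18, 1.26, 7.09 and 7.87 FPKM. Every wound was above every unwounded library, and the wounds of a site differed among themselves by more than the site means did. The mean level was 2.41 ± 2.75 FPKM (SD, n = 4) in abdomen wounds, 2.12 ± 1.3 in back wounds and 4.35 ± 3.63 in cheek wounds.

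The mean log2 fold change of Il24 over the sites was 2.37 (standard error 0.27, limma adjusted p = 1.8e-05), and it was higher in the wound of 12 of 12 mice (exact sign-change permutation test, two-sided, p = 0.0004883, which no set of 12 mice can go below). The sites had log2 fold changes of 2.06 for abdomen, 2.19 for back and 2.85 for cheek, at limma adjusted p values of 0.0072, 0.0032 and 0.00088, so that of the sites taken singly only cheek passed 0.001. The cheek call was lost in 16 of 21 alternative analyses, with limma adjusted p values from 0.00104 to 0.00638, although its direction was kept in all 21. Il24 entered the limma tests only through the wounds, so a rise was close to fixed in advance. The size of the log2 fold changes depended on the added 0.5 FPKM, since the unwounded level was at or near 0. With 0.1 FPKM added, the mean log2 fold change was 4.21, and with 1 FPKM it was 1.68. Abdomen mouse 1 held much of the abdomen value, which was 1.48 without it (limma adjusted p = 0.031).

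Il20, which encodes the founding member of the subfamily, was already detected in every unwounded library. Unwounded abdomen skin of mice 1 to 4 had 2.45, 4.1, 4.2 and 1.6 FPKM, and the abdomen wounds had 0.83, 2.43, 1.78 and 0.78 FPKM. Unwounded back skin had 0.63, 0.64, 0.81 and 0.72 FPKM and back wounds had 0.44, 0.63, 0.70 and 0.93. Unwounded cheek skin had 0.70, 1.56, 1.5 and 0.75 FPKM and cheek wounds had 0.61, 0.72, 0.61 and 0.68. The wound was lower than the unwounded skin of the same mouse in all but 1 mouse, back mouse 4, and the wounds of abdomen mice 1, 2 and 3 still lay above the unwounded skin of all 4 back mice.

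Il20 fell by 0.46 on the log2 scale over the 3 sites (standard error 0.09, limma adjusted p = 0.00064), in 11 of 12 mice (exact sign-change permutation test, two-sided, p = 0.00635). The log2 fold changes were -0.89 in abdomen (limma adjusted p = 0.0013), -0.45 in cheek (0.038) and -0.04 in back (0.84), none of which passed 0.001. The call over the 3 sites was lost in 10 of 20 alternative analyses, among them the one without a term for each mouse (limma adjusted p = 0.0127). The F test of whether the effect differed between sites gave an unadjusted p of 0.0072 and an adjusted p of 0.247 for Il20.

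Il19, the third ligand of the cluster, was the least abundant of the 3 in wounds. It ranged from 0 to 0.52 FPKM in unwounded skin and from 0 to 1.32 FPKM in wounds. The highest value came from the wound of cheek mouse 4, which was listed at 0 in unwounded skin, and the other cheek wounds had 0.21, 0.22 and 0.66 FPKM. The mean log2 fold change was 0.38 (standard error 0.18, limma adjusted p = 0.084), with 8 of 12 mice higher in the wound (exact sign-change permutation test, two-sided, p = 0.0537). In cheek the log2 fold change of Il19 was 0.44, and it was -0.03 without cheek mouse 4. The ranges of wounds and unwounded skin overlapped at every site.

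Il20rb encodes the chain shared by both IL-20 receptors, and its level was lower in the wound of every mouse. Unwounded abdomen skin had 49.9, 54.9, 52.8 and 51.8 FPKM in mice 1 to 4, and abdomen wounds had 30.0, 42.3, 43.7 and 41.2. In back, 45.4, 50, 36.0 and 54.3 FPKM in unwounded skin stood against 27.3, 32.3, 23.2 and 31.9 in wounds. In cheek, unwounded skin had 45.2, 34.2, 35.6 and 37.2 FPKM and wounds had 31.6, 26.9, 22.2 and 30.9. Within each site the unwounded and wound libraries did not overlap. Il20rb fell by 0.52 on the log2 scale (standard error 0.05, limma adjusted p = 2.13e-06) over the sites. The abdomen value was -0.42 (limma adjusted p = 0.0032), the back value -0.68 (6.12e-05) and the cheek value -0.45 (0.0017), so that taken singly only back passed 0.001. The exact sign-change permutation test over the 12 mice gave p = 0.0004883 (two-sided), the lower limit of this design.

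Il20ra encodes the chain that pairs with IL-20RB in the receptor for all 3 ligands. Its level was 9.23, 5.36, 7.05 and 6.85 FPKM in unwounded abdomen skin and 4.48, 5.07, 5.32 and 4.85 in abdomen wounds. In back it was 5.34, 9.67, 6.90 and 8.74 FPKM in unwounded skin and 2.86, 3.86, 4.74 and 3.43 in wounds. In cheek it was 5.90, 3.88, 5.90 and 3.52 FPKM in unwounded skin and 3.61, 2.36, 2.94 and 5.54 in wounds. The wound was lower in all mice but cheek mouse 4, and the groups did not overlap in abdomen and back but did in cheek. The mean log2 fold change was -0.60 (standard error 0.12), and its limma adjusted p of 0.00109 lay just outside the threshold (11 of 12 mice, exact sign-change permutation test, two-sided, p = 0.0044). Without cheek mouse 4, Il20ra fell by 0.71 on the log2 scale and passed (limma adjusted p = 3.21e-05). In back the log2 fold change was -0.94 (limma adjusted p = 0.0038), in abdomen -0.47 (0.11) and in cheek -0.39 (0.17).

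Il22ra1 encodes the chain that IL-20RB joins to form the second receptor for IL-20 and IL-24, and that also serves IL-22. It stayed between 7.81 and 13.2 FPKM in unwounded skin, with a median of 9.58, and between 6.74 and 12.3 FPKM in wounds, with a median of 8.87. The log2 fold change was -0.11 with a 95% confidence interval from -0.23 to -0.0018 (limma adjusted p = 0.071), and 9 of 12 mice were lower in the wound (exact sign-change permutation test, two-sided, p = 0.0356). Wound and unwounded libraries overlapped at each site. The ratio of Il22ra1 to Il20ra, compared within each library after the values had been seen, had a median of 1.66 in unwounded skin and 2.35 in wounds. It was higher in the wound of 10 of 12 mice, by 1.45-fold (exact sign-change permutation test, two-sided, p = 0.00879), the exceptions being abdomen mouse 2 and cheek mouse 4. The ratio of Il20rb to Il20ra had medians of 7.53 and 8.36 and was higher in 9 of 12 mice, by 1.10-fold (p = 0.294 by the same exact test).

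Il17ra encodes the receptor chain that most IL-17 family cytokines have in common, and it rose. Unwounded abdomen skin had 5.63, 6.80, 5.91 and 5.79 FPKM and abdomen wounds had 10.4, 7.66, 7.54 and 7.18. Unwounded back skin had 5.46, 5.3, 5.42 and 4.73 FPKM and back wounds had 10.9, 10.2, 11.1 and 8.46. Unwounded cheek skin had 6.61, 5.77, 6.47 and 5.58 FPKM and cheek wounds had 9.34, 9.75, 12.3 and 11.1. The lowest of all wounds, at 7.18 FPKM, was above the highest of all unwounded libraries, at 6.80. The mean log2 fold change of Il17ra was 0.68 (standard error 0.06, limma adjusted p = 1.43e-06), in 12 of 12 mice (exact sign-change permutation test, two-sided, p = 0.0004883, again the lower limit).

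Back showed the highest log2 fold change of Il17ra with 0.89 (limma adjusted p = 4.52e-05), before cheek with 0.75 (0.00024) and abdomen with 0.40 (0.014). In abdomen the value came to a large part from mouse 1, and it was 0.26 without that mouse (limma adjusted p = 0.073). The cheek call was lost without cheek mouse 2, 3 or 4, at limma adjusted p values from 0.00153 to 0.00226, and when cheek was analysed on its own 8 libraries (0.0046). The effect in back exceeded that in abdomen by 0.49 on the log2 scale (unadjusted p = 0.0072, limma adjusted p = 0.184), so a difference between the sites was not shown after adjustment.

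Il17rc, whose product pairs with IL-17RA to bind IL-17A, was about as abundant as Il20rb. Unwounded libraries ranged from 31.9 to 53.3 FPKM with a median of 39.2, and wounds from 38.9 to 60.2 FPKM with a median of 45.8. The value was higher in the wound of 12 of 12 mice, from cheek mouse 1 with 38.2 FPKM in unwounded skin and 38.9 in the wound to back mouse 3 with 35.4 and 50.7. The log2 fold change of Il17rc was 0.27 (standard error 0.06), with a limma adjusted p of 0.00104 just outside the threshold and p = 0.0004883 in the exact sign-change permutation test (two-sided). The sites had values of 0.26 (abdomen), 0.28 (back) and 0.27 (cheek), with limma adjusted p values of 0.056, 0.032 and 0.045. The estimates for Il17rc were alike at the 3 sites. The 95% confidence interval of the difference between back and abdomen, -0.28 to 0.32, was wide beside the effect itself.

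Il17ra and Il17rc, although parts of the same receptor, did not shift in proportion in back and cheek. Their ratio within a library, also chosen after the values had been seen, had a median of 0.157 in unwounded skin and 0.219 in wounds, and it was higher in the wound of 11 of 12 mice, by 1.37-fold (exact sign-change permutation test, two-sided, p = 0.00244). In back the ratio was between 0.1248 and 0.153 in unwounded skin and between 0.188 and 0.243 in wounds, and in cheek between 0.161 and 0.175 and between 0.220 and 0.266, with no overlap at either site. In abdomen the ranges of 0.106 to 0.165 and 0.135 to 0.173 overlapped, and 3 of 4 mice were higher in the wound. There mouse 1 went from 0.106 to 0.173 and mouse 3 from 0.123 to 0.135. Mouse 4 hardly changed, from 0.1646 to 0.1649, and mouse 2 fell from 0.160 to 0.142.

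**Figure D2:**
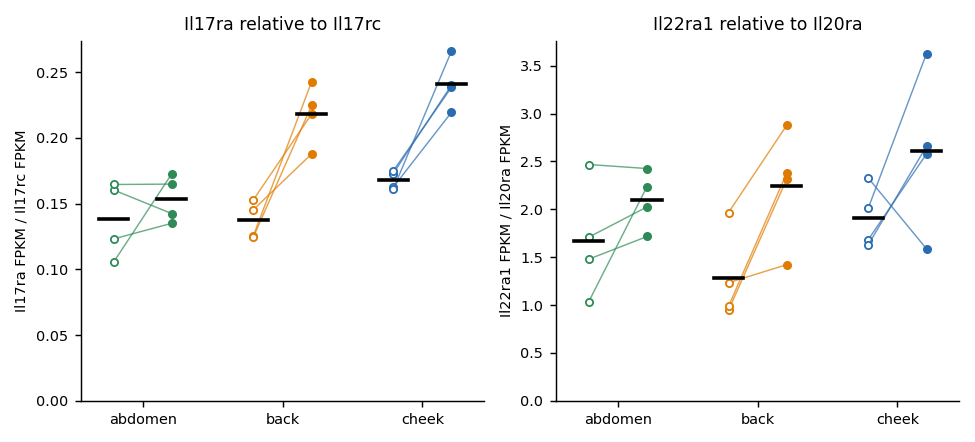
Ratio of FPKM values within each library, Il17ra to Il17rc on the left and Il22ra1 to Il20ra on the right, with open circles for unwounded skin, filled circles for wounds, lines for mice and black bars for means of 4 libraries. The Il17ra to Il17rc ratio of the 4 wounds lay above that of the 4 unwounded libraries in back and cheek and overlapped in abdomen.

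Il17a and Il17c were barely detected. Of these, Il17a encodes a ligand of the receptor formed by IL-17RA and IL-17RC, whereas IL-17C uses IL-17RA paired with IL-17RE. Il17a, the lymphocyte cytokine, was listed at 0 in all 12 unwounded libraries and at 0.05 FPKM in 5 of 12 wounds, those of abdomen mouse 1, back mouse 1 and cheek mice 2, 3 and 4, with 0 in the other 7. Il17c, the epithelial ligand, was listed at 0.09 FPKM in unwounded skin of abdomen mouse 4 and cheek mouse 3 and at 0.09 or 0.10 FPKM in the wounds of abdomen mouse 1, back mouse 1 and cheek mice 1, 2 and 4. It was listed at 0 in the other 17 libraries. All values of Il17a above 0 were the same, and those of Il17c took only 2 values. The exact sign-change permutation test gave p = 0.0625 for Il17a and p = 0.359 for Il17c (two-sided). The value for Il17a is the smallest this test can give, since only 5 mice differed between wound and unwounded skin. Levels this low do not allow a difference to be detected.

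Markers of T cells, a known source of IL-17A, were present, with a summed level between 22.6 and 59.7 FPKM in unwounded skin and between 27.95 and 45.9 FPKM in wounds for the 7 of 10 listed genes that were analysed. None of them was at 0 in all libraries of either state. Of these 7 genes, 2 rose and 3 fell in wounds, against 19.1% and 14.4% of all genes, and 1 of them reached 0.5 FPKM in fewer than 4 unwounded libraries.

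**Figure D3:**
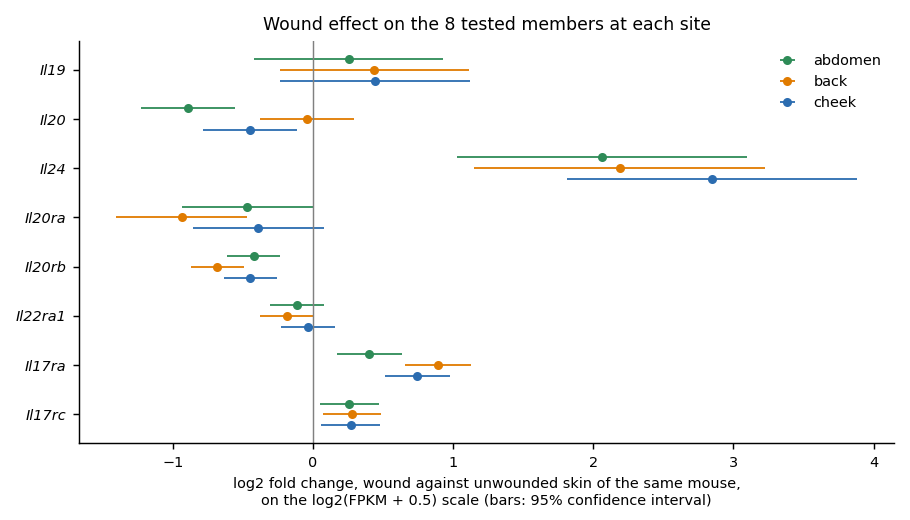
Log2 fold change of wound against unwounded skin of the same mouse on the log2(FPKM + 0.5) scale, for the 8 tested genes in abdomen, back and cheek, with 95% confidence intervals from limma. Il24 lay above 0 and Il20rb below 0 at every site, and the intervals of the sites overlapped for each gene except Il20 and Il17ra in abdomen and back.

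Counted site by site at an adjusted p under 0.001, 2 of the 8 genes changed in back, namely Il17ra and Il20rb, where 14.4% of all tested genes did. In cheek 2 changed, Il17ra and Il24, against 8.69% of all genes, and Il24 had entered the test only through the wounds. In abdomen 0 passed by limma, against 4.96% of all genes, and 6 of the 8 had an unadjusted p under 0.05, against 44.3% of all genes. At an adjusted p under 0.05 the counts were 4 in abdomen, 5 in back and 5 in cheek, against 32.9%, 45.9% and 36.6% of all genes. These counts do not show that the sites differed. The F test of a difference in wound effect between sites called 0 of the 8 genes by limma at 0.05, and it called 0.0208% of all genes. At an unadjusted p under 0.05 it had 2 of the 8, Il20 and Il17ra, against 12.9% of all genes.

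Before wounding, Il20 was the only one of the 6 genes tested that differed between sites. Its mean was 3.09 ± 1.28 FPKM (SD, n = 4) in unwounded abdomen skin, 0.700 ± 0.084 in back and 1.13 ± 0.47 in cheek. The lowest abdomen library, at 1.60 FPKM, was above the highest of the other 8 libraries, at 1.56 FPKM in cheek mouse 2. Between back and abdomen the log2 fold change was -1.51, with a standard error of 0.26 and a limma adjusted p of 0.011, in a comparison that called 2.67% of all genes. This call was kept in all 20 alternative analyses. Between cheek and abdomen it was -1.11 (limma adjusted p = 0.044), where 2.57% of all genes were called. The cheek call was lost in 13 of 20 alternatives, at limma adjusted p values from 0.0505 to 0.147. Neither pair overlapped (exact permutation test of 4 libraries against 4, two-sided, p = 0.02857 each, the lower limit of 4 against 4). Cheek and back differed by 0.40 (limma adjusted p = 0.39, in a pair with 1.05% of all genes called), with overlap. The median of all genes was itself shifted by -0.12 between back and abdomen, and by 0.0041 after median-ratio scaling, and the difference of Il20 is large beside either.

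The receptors differed less between unwounded sites. Il20rb was lower in cheek than in abdomen in all 4 libraries, at 38.0 ± 4.93 against 52.4 ± 2.06 FPKM (SD, n = 4, log2 fold change -0.46), without overlap but with a limma adjusted p of 0.070. Il17ra was lower in back than in abdomen and in cheek without overlap, at 5.23 ± 0.34, 6.03 ± 0.52 and 6.11 ± 0.51 FPKM, but its log2 fold changes were only -0.19 against abdomen and 0.20 for cheek against back (limma adjusted p = 0.287 and 0.254). Both had an exact permutation p of 0.02857 (two-sided), the smallest for 4 against 4. For the Il17ra pairs, the median of all genes was itself shifted by -0.12 (back against abdomen) and 0.14 (cheek against back). These shifts are a large part of the Il17ra differences. Skeletal muscle markers also varied with site, their summed level being 440 to 13620 FPKM in unwounded abdomen, 12020 to 19020 in back and 9853 to 19720 in cheek. The summed level of keratinocyte markers was 6594 to 8835 FPKM in unwounded abdomen, 6177 to 9466 in back and 5134 to 6712 in cheek. Their part in the differences of Il20 and Il20rb was not tested.

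In wounds, 0 of 7 tested genes differed between sites by limma at 0.05, where 1.27% of all genes were called for back against abdomen, 10.8% for cheek against abdomen and 2.50% for cheek against back. At an unadjusted limma p under 0.05 there were 4 genes for back against abdomen (16.5% of all genes). There were 6 for cheek against abdomen (31.6% of all genes) and 0 for cheek against back (26.1%). Il22ra1 was lower in back than in abdomen wounds without overlap, at means of 8.02 and 10.3 FPKM (log2 fold change -0.34, limma adjusted p = 0.127). Il20 was again highest in abdomen, with 1.46 ± 0.80 FPKM in abdomen wounds against 0.675 ± 0.20 in back and 0.655 ± 0.054 in cheek, and the cheek wounds did not overlap with the abdomen wounds (log2 fold change -0.67, limma adjusted p = 0.086). The library of the wound of abdomen mouse 1 bore on this comparison. Without it, Il20 (-0.83, limma adjusted p = 0.049), Il20rb (-0.61, 0.023) and Il17ra (0.47, 0.027) passed 0.05 between cheek and abdomen wounds. The share of all genes that passed without it is not given here, so these calls have no background beside them. Without abdomen mouse 4 instead, Il20 also passed (-0.84, limma adjusted p = 0.046). The wound library of abdomen mouse 1 had the highest Il24 and Il17ra of the abdomen wounds and the lowest Il20rb.

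Of the genes in the same pathways that are not among the 10, the other ligands were mostly near 0. Il22, the ligand of IL-22RA1 with IL-10RB, was at most 0.12 FPKM in any library, and Il17f, the closest relative of Il17a, had a median of 0 in unwounded skin and 0.025 FPKM in wounds, with a highest value of 0.36. Il17b and Il25, further IL-17 family ligands, had medians of 0.105 and 0.18 FPKM in unwounded skin and 0.335 and 0.12 FPKM in wounds, and Ifnl2, an interferon lambda gene, did not exceed 0.12 FPKM. Of the 4 other IL-17 family ligands only Il17d could be tested, and it fell by 0.59 on the log2 scale (limma adjusted p = 0.00081). Il10, the anti-inflammatory founder of the IL-10 family, rose by 0.82 (limma adjusted p = 6.46e-05), from a median of 0.415 to one of 0.98 FPKM. It was the only one of 4 other IL-10 family ligands tested. Of the remaining receptor genes, 2 of 7 rose and 3 fell, where 19.1% of all genes rose and 14.4% fell. Il10ra rose by 1.62 and Il10rb by 0.93. Il10rb encodes the second chain of the receptors for IL-10 and IL-22. Of the 3 falls the largest was that of Il22ra2, which encodes a soluble decoy receptor for IL-22, at -1.31 on the log2 scale (limma adjusted p = 7.01e-07), with 2.54 to 6.75 FPKM in unwounded skin and 0.98 to 3.05 in wounds. Ifnlr1, a receptor chain for interferon lambda, fell by 0.46, and Il17re, the partner of IL-17RA for IL-17C, fell by 0.35 (limma adjusted p = 0.0007).

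Of the signalling genes in 3 lists, 13 of 26 rose and 0 fell, against 19.1% and 14.4% of all genes. Among JAK-STAT components used by the IL-20 receptors, 6 of 7 rose, with a median log2 fold change of 0.55 against 0.02 over all genes. The feedback inhibitor Socs3 rose by 1.40 and the kinase gene Jak1 by 0.26, and Tyk2 had 0.27 (limma adjusted p = 0.0020). Of 13 adaptors and relays of the IL-17 receptor 5 rose, and the median was 0.14. Nfkbiz, a nuclear co-activator induced by IL-17, rose by 0.78 and the transcription factor gene Cebpb by 0.52, while Traf5 had -0.20 (limma adjusted p = 0.043) and Tab3 -0.12 (0.12). Of 6 inhibitors of IL-17 signalling 2 rose, namely Nfkbia by 0.52 and Tnfaip3 by 0.49, with Traf3 at 0.16 (limma adjusted p = 0.029) and Usp25 at 0.15 (0.047).

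Genes known to be induced by IL-17 and IL-20 cytokines in keratinocytes and stroma included the highest fold changes of the 8 lists. Of 17 tested, 15 rose and 0 fell, against 19.1% and 14.4% of all genes, with a median log2 fold change of 2.32. In this count, 6 of the 17, among them Cxcl2, reached 0.5 FPKM in fewer than 4 unwounded libraries and passed the filter only with the wounds, so that they could hardly enter except as rises. Cxcl2, a neutrophil-attracting chemokine, went from at most 0.35 FPKM in unwounded skin to between 58.5 and 370 FPKM in wounds, a log2 fold change of 8.39 on the scale with 0.5 FPKM added. Krt16, a stress keratin, rose from 7.36 to 36.6 FPKM in unwounded skin to between 558 and 3761 FPKM in wounds (log2 fold change 6.96). The 2 that did not pass were Defb14, a beta-defensin, at 0.73 (limma adjusted p = 0.0024) and Ccl20, the chemokine for CCR6-bearing cells, at -0.13 (0.52). These genes respond to many other signals, and the lists were chosen with earlier results of these data known. Of 11 tested genes of the IL-23 and type 17 lymphocyte list, 3 rose and 3 fell, near the shares of all genes (19.1% and 14.4%), and 4 of the 11, Il23a among them, reached 0.5 FPKM in fewer than 4 unwounded libraries. Il23a, a subunit of the cytokine that sustains IL-17-producing cells, rose by 1.69 and the cytokine receptor gene Il7r by 0.81. Zbtb16, a transcription factor gene of innate-like T cells, fell by 1.07.

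**Figure D4:**
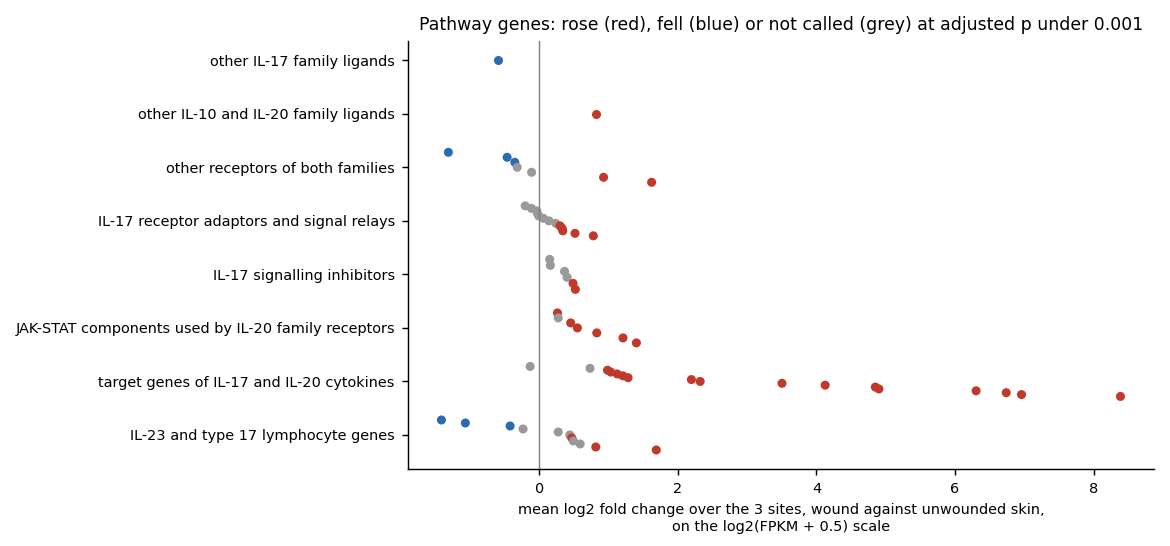
Mean log2 fold change over the 3 sites on the log2(FPKM + 0.5) scale, 1 point per tested gene of 8 lists of genes related to the cytokines and receptors, with red for genes that rose, blue for genes that fell and grey for genes that did not pass an adjusted p of 0.001. The highest values belong to target genes, of which 15 of 17 rose (6 of the 17 entered the test through the wounds), and the list of other receptors holds both rises and falls.

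Several cell type markers moved with wounding. The summed level of neutrophil markers was 2.75 to 7.75 FPKM in unwounded skin and 37.3 to 165 FPKM in wounds, that of macrophage markers 386 to 796 and 769 to 1295 FPKM, and that of keratinocyte markers 5134 to 9466 and 9795 to 17810 FPKM. Fibroblast markers summed to 9105 to 23080 FPKM in unwounded skin and 5972 to 12550 FPKM in wounds, and skeletal muscle markers to 440 to 19720 and 1583 to 5841 FPKM. Of the markers tested, 6 of 7 for neutrophils, 6 of 7 for macrophages, 3 of 8 for keratinocytes and 1 of 7 for fibroblasts rose, while 1 keratinocyte and 2 fibroblast markers fell, and 0 of 6 muscle markers passed, where 19.1% of all genes rose and 14.4% fell. Of the 7 neutrophil markers, 4 reached 0.5 FPKM in fewer than 4 unwounded libraries and entered the test through the wounds. No marker of these lists was at 0 in all 12 libraries of a state. Il20rb and Il20 were lower in wounds, where the summed level of keratinocyte markers was higher. Over the 8 keratinocyte markers the median log2 fold change was only 0.29, with 3 that rose and 1 that fell. Il17ra was higher where the summed markers of neutrophils and macrophages were. Their part in these results was not tested.

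The genes whose levels followed each member most closely over the 24 libraries were found by Pearson's r of log2(FPKM + 0.5), among 14419 other tested genes. These are descriptions, since all points share the wounded and unwounded states and 12 mice. For Il24 they were Sh2d5 (r = 0.976), Hbegf (0.957), which encodes an epidermal growth factor receptor ligand, and Cdhr1 (0.955), and within the 12 wounds r was 0.906, 0.919 and 0.871. For Il17ra they were Il1rl1 (0.965), the receptor for IL-33, Socs3 (0.964) and Thbs1 (0.964), and for Il20rb they were Gdpd2 (0.934), P2rx2 (0.931) and Phf24 (0.928). Il20 was followed by Tm7sf2 (0.916), a sterol reductase gene, Rdh9 (0.911), a retinol dehydrogenase gene, and Adtrp (0.891). Il17rc had Cdk2ap2 (0.892), Ly6d (0.885) and Dolpp1 (0.875). The highest values were lower for Il22ra1 (Adgrf4 at 0.833, Rasgrp1 at 0.819 and Me1 at 0.806), for Il20ra (Gramd2 at 0.824, Kcnj16 at 0.823 and Tdo2 at 0.818) and for Il19 (Epgn at 0.752 and Dbil5 at 0.735). Within the 12 wounds, r of all these pairs ranged from 0.574 (Il20ra with Kcnj16) to 0.948 (Il17ra with Socs3). It was lower there than over the 24 libraries for some pairs, and higher for others, such as Il22ra1 with Rasgrp1 (0.872).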

How the data were processed

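Libraries of 24 skin biopsies from 12 mice were sequenced in pairs of reads on a BGI platform. For the authors, the sequencing provider computed FPKM per gene using HISAT2, Bowtie2 (version 2.2.5) and RSEM (1.2.12) on mm10, with no further scaling, and the deposited FPKM table holds 2 decimals. A second deposited table holds log2 fold changes and adjusted p values of the authors' own DESeq2 comparisons and was not used.

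Here limma (3.58.1, statmod 1.5.0, R 4.3.3; trend and robust moderation) was run on log2(FPKM + 0.5), for genes that reached 0.5 FPKM in 4 or more of the libraries fitted. Wound effects were estimated from the 24 libraries jointly, with mouse as a block. Site pairs were tested separately in unwounded skin (12 libraries) and in wounds (12 libraries). For members, exact permutation tests were added. Same-numbered libraries of a site come from the same animal by the labels. Their deviations from the group means had an average correlation over genes of 0.322 (abdomen), 0.348 (back) and 0.281 (cheek), the lowest being -0.030 in abdomen mouse 1, against -0.108, -0.116 and -0.0958 for libraries of different mice. Deviations in a group sum to 0, so the values for different mice largely follow from the others and are no separate check. The models were checked on simulated data.

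The members and gene lists were chosen with earlier results of these data known. All 10 members are named, with the 2 highest and 2 lowest tested genes by mean wound effect of each pathway list (every gene of the short ligand lists) and the 3 genes most like each member, apart from a few genes that are not reported here. Il17re, the genes named between sites and the ratios of receptor chains were chosen after their values were seen. Listed genes outside the table (such as Ifnl3, Trac, Trbc2 and Trdc) were not analysed here. Positions and promoter windows are from RefSeq (GRCm38.p6). The alternatives were other pseudocounts and filters, scaling by median ratios or quantiles, limma without its trend and robust options, other terms and sets of libraries, an adjusted p under 0.05 and each mouse left out in turn.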

Additional observations from a re-analysis of the deposited data

Results flagged for a closer look

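In 56 groups of 4 libraries that were not all at 0, 15 values lay far from the other libraries of their group by Dixon's criterion. It flags about 1 in 20 groups by chance where values do not tie, but always flags a value beside 3 equal ones. Only the flags of Il24 and Il17ra in the abdomen mouse 1 wound and of Il17rc in the back mouse 3 wound arose without such ties. The count of 15 can therefore not be set against 1 in 20. The abdomen mouse 1 wound stood apart for Il24 (6.49 FPKM), Il17ra (10.41 FPKM), Il17a (0.05 FPKM) and Il17c (0.09 FPKM). The back mouse 1 wound stood apart for Il17a (0.05 FPKM) and Il17c (0.10 FPKM), and the back mouse 3 wound for Il17rc (50.72 FPKM). In unwounded skin, Il24 stood apart in abdomen mouse 3 (0.12 FPKM), back mouse 3 (0.11 FPKM) and cheek mouse 4 (0.06 FPKM), Il19 in back mouse 4 (0.16 FPKM), and Il17c in abdomen mouse 4 (0.09 FPKM) and cheek mouse 3 (0.09 FPKM), each time because the other 3 libraries of the group were at 0. Among cheek wounds it was the value of 0 that stood apart, for Il17a in mouse 1 (0 FPKM) and for Il17c in mouse 3 (0 FPKM). For the genes near 0 such a value may differ little from the others, by 0.05 FPKM for Il17a.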

How the results depend on the processing

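The number of the 10 genes called for a wound effect over the 3 sites was 4 and stayed between 3 and 6 under the alternatives, including 4 with no replicate block (without pairing the libraries of a mouse), and 0 were called for a difference between sites in every alternative. In abdomen, where 0 were called, 1 was called with a pseudocount of 0.1 FPKM, 1 with 1 FPKM, 1 with quantile normalization and 1 without trend and robustness, and 4 at an adjusted p under 0.05. In back, where 2 were called, 4 were called on the 8 libraries of the site alone and 5 at 0.05. In cheek, where 2 were called, 1 was called with a pseudocount of 1 FPKM, 1 without a filter, 1 with median-ratio scaling, 0 on the 8 libraries of the site alone and 5 at 0.05, and between 0 and 3 with a mouse left out, 0 without cheek mouse 2, 3 or 4. Between unwounded sites 1 gene was called, and 2 with all 24 libraries and a replicate block and between 1 and 2 with a mouse left out. Between wound sites 0 were called, and 1 with median-ratio scaling, 1 with quantile normalization, 1 with all 24 libraries and a replicate block, and between 0 and 3 with a mouse left out (3 without abdomen mouse 1, 2 without abdomen mouse 4). With a mouse left out, the direction turned for 3 log2 fold changes that had not been called, which ranged from -0.13 to 0.030 for Il20 in back (positive without mouse 1), from -0.031 to 0.76 for Il19 in cheek (negative without mouse 4) and from -0.091 to 0.044 for Il22ra1 in cheek (positive without mouse 3). Il20ra and Il17rc, just outside the threshold over the 3 sites, each passed it in 3 of 20 alternatives. The share of all genes called is not given here for the other alternatives, so their counts have no background beside them. The cause of these changes was not tested. Depth is unknown. Il17a and Il17c did not exceed 0.05 and 0.10 FPKM, and Il19 was listed at 0 in 6 of 24 libraries.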

Other observations

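Unwounded abdomen skin had more Ccl20 as well as more Il20. For Ccl20 the log2 fold change against abdomen was -1.68 in back (limma adjusted p = 0.029) and -1.70 in cheek (0.031). Nfkbia was also lower in back than in abdomen (-0.62, limma adjusted p = 0.048). In all, 3 of 53 pathway genes tested were called between unwounded back and abdomen and 1 of 53 between cheek and abdomen, where 2.67% and 2.57% of all genes were. In wounds, Ifnlr1 was lower in back (-0.64, limma adjusted p = 0.023) and in cheek (-0.51, 0.019) than in abdomen, Il10rb was higher in back (0.42, 0.044), Rora lower in back (-0.42, 0.047), Cebpb lower in cheek (-0.57, 0.034) and Il7r higher in cheek (0.68, 0.049). They made up 3 of 62 tested pathway genes in each of these 2 pairs of sites, against 1.27% and 10.8% of all genes. Between cheek and back limma called 0 pathway genes in either state.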
